A study of Mus with 8 samples.

Results

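The 34 genes described here are type I interferon-stimulated genes, followed in 8 whole tumours grown from MC38, a mouse colon cancer cell line. They were listed by name, with no threshold on their measured values, though earlier results of these data were known when the list was drawn up. A probe could be matched through its RefSeq accession for 32 of the 34, and all 32 were well above background on all 8 arrays and entered the comparison of 31281 genes and transcripts. Mx1 and Mx2, dynamin-like GTPases that block virus replication, were not analysed, because the gene table lists both as transcribed pseudogenes under accessions that no probe carried. The word members below means the 32 measured genes.

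MC38 cells were placed under the skin of 4 wild-type mice (WT host) and of 4 mice with floxed Ext1 alleles and an S100a4-Cre transgene (Ext1S100a4Cre host), all of B6 origin by the labels. The tumour cells came from the same cell line in both hosts and were not themselves given the transgene, so the deletion concerned host cells. Tumours were collected 25 to 30 days later, and 0.5 µg of whole-tumour RNA was labelled and measured on a 1-colour Agilent array. Ext1 encodes a polymerase of heparan sulfate, a sulfated sugar chain on cell surfaces and in the matrix. The question is how tumours differ when such host cells cannot make it. S100a4, whose promoter drives the Cre, is expressed by fibroblasts and also by some immune cells. The labels give neither the age nor the sex of the hosts and describe the controls only as wild type, with no word on floxed alleles or Cre in them. In whole tumours, fewer cells of a type and less RNA per cell cannot be told apart. The samples are labelled as separate tumours, so errors and p-values below measure the spread between these tumours.

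A level is log2 of the processed intensity minus the array's 75th percentile, so that 0 is the 75th percentile of all probes on that array, and differences are Ext1S100a4Cre host minus WT host. The 75th percentile ran from 846.9 to 1265 across arrays and the share of probes well above background from 65.7% to 71.1%, with the lowest values of both in tumours 1 and 4 of the Ext1S100a4Cre host. Ext1 itself measured -0.55, -0.28, 0.24 and -0.14 in WT host tumours 1 to 4 and -0.62, -0.27, -0.54 and -0.42 in Ext1S100a4Cre host tumours 1 to 4, which overlap. Where the deletion lies relative to the probe for Ext1 is not given in the sources used here, so these values do not check the genotype. The difference of Ext1 was -0.28 (SE 0.18, limma's adjusted p = 0.747).

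The Y chromosome genes Ddx3y, Eif2s3y, Kdm5d and Uty set tumours 1 and 4 of the Ext1S100a4Cre host apart from the other 6. In those 2 tumours none of the 4 genes was well above background, and elsewhere all were. The mean of the 4 genes, each relative to its mean over the 8 tumours, was -3.43 and -3.29 in tumours 1 and 4 and between 0.42 and 2.44 in the other 6. The same 2 tumours lay under tumours 2 and 3 of their host for 28 of the 32 members described below, and for 21.1% of all genes and transcripts.

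Type I interferons are secreted by cells that sense foreign or misplaced nucleic acid. They bind a shared receptor made of Ifnar1 and Ifnar2, whose kinases Jak1 and Tyk2 phosphorylate STAT proteins, Stat2 among them. With Irf9 these form ISGF3, the complex that binds response elements in front of the genes described here. In tumours these genes can be active in cancer cells, fibroblasts and leukocytes alike, and interferon gamma from T and NK cells acts through a receptor of its own on an overlapping set, of which Irf1 is a leading target.

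The members did not separate the hosts, and they differed widely between tumours of the same host. Their mean level was 1.34-fold lower in the Ext1S100a4Cre host, each gene taken relative to its own mean over the 8 tumours. In WT host tumours the list mean was 0.21 ± 0.80 (SD, n = 4). In tumours of the other host it was -0.21 ± 1.10 (SD, n = 4). Of the 32 members, 31 had a lower mean in the Ext1S100a4Cre host, where 41.9% of all genes and transcripts did (29.6% with normexp background correction and 79.2% in the unscaled series matrix). The median difference was -0.38 against 0.050 over all. In the unscaled series matrix the median over all was -0.20 and the list mean differed by -0.67. Limma called 0 of 32 members at an adjusted p of 0.05, and 0% of all tested, while at an unadjusted p under 0.05 it had 0 of 32 members against 6.55% of all, or 2.16% counting lower values alone. A mean lower by at least 0.5 log2 units was measured for 11 of 32 members and for 10.1% of all. The groups overlapped for all 32 members, whereas they did not overlap for 4.52% of all genes and transcripts.

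The direction of the list mean rested on single tumours. Without Ext1S100a4Cre host tumour 1 the list differed by 0.045 and 13 members had a lower mean, as did 44.8% of all genes and transcripts. Without WT host tumour 3 the list differed by -0.069 with 22 lower, against 45.7% of all. Without both it differed by 0.40 and 1 member, Irf1, was lower, against 47.1% of all. Without tumours 1 and 4 of the Ext1S100a4Cre host, where the Y chromosome genes were at background, the list mean was higher in that host by 0.44. Of the 32 members 28 then had a higher mean, with Irf1, Bst2, Parp14 and Samhd1 as the exceptions. Without tumours 2 and 3 of that host the difference was -1.29, and 31 members had a lower mean, as did 39.9% of all. An unadjusted p under 0.05 by limma was then measured for 7 of 32 members and for 5349 of 31235 genes and transcripts. These sets of tumours were put together after values of these data had been seen, and 0 of 32 members passed limma's adjusted p of 0.05 in any of them.

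**Figure D1:**
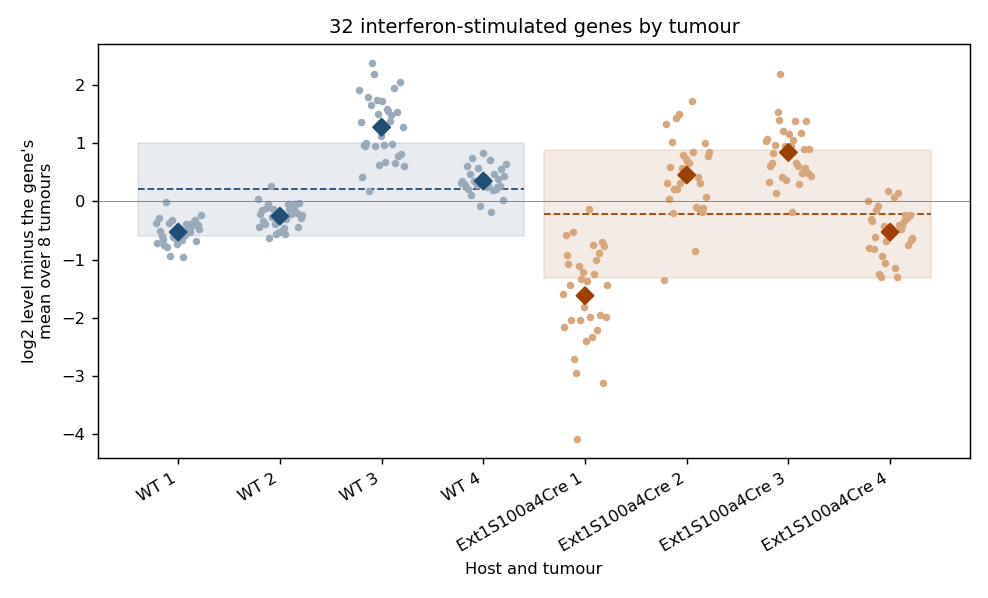
Level of each of the 32 members in each tumour on the log2 scale, relative to the gene's mean over the 8 tumours (small points), with the mean of the members (diamonds), and for each host the mean of its 4 diamonds (dashed line) and 1 SD to either side (band). The diamonds run from -1.62 to 0.84 in the Ext1S100a4Cre host and from -0.53 to 1.28 in the WT host.

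The spread between tumours was large and shared by nearly all members. WT host tumours 1 to 4 had list means of -0.53, -0.25, 1.28 and 0.35, and Ext1S100a4Cre host tumours 1 to 4 had -1.62, 0.46, 0.84 and -0.53. Tumour 3 was thus highest in either host, and the lowest tumour of all was Ext1S100a4Cre host tumour 1. From the lowest to the highest tumour the list mean spanned 7.47-fold, 3.50-fold within the WT host and 5.53-fold within the Ext1S100a4Cre host. The median SD within hosts was 1.00 for members and 0.305 over all genes and transcripts. For each of the 32 members this SD was larger than the difference between host means, as it was for 73.2% of all genes and transcripts.

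WT host tumour 3 held the highest value of 28 members (19.8% of all genes and transcripts), Ext1S100a4Cre host tumour 2 that of the other 4, Rsad2, Dhx58, Rtp4 and Eif2ak2. Ext1S100a4Cre host tumour 1 held the lowest value of 30 members (15.6% of all). The exceptions were Isg20, lowest in WT host tumour 1, and Samhd1, lowest in Ext1S100a4Cre host tumour 2. In the WT host, tumours 3 and 4 both lay above tumours 1 and 2 for 31 members (18.9% of all). In the Ext1S100a4Cre host, tumours 2 and 3 both lay above tumours 1 and 4 for 28 members (21.1% of all). Both orders held together for 28 members and for 8.31% of all genes and transcripts. These orders were chosen after the values were seen and carry no test.

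**Figure D2:**
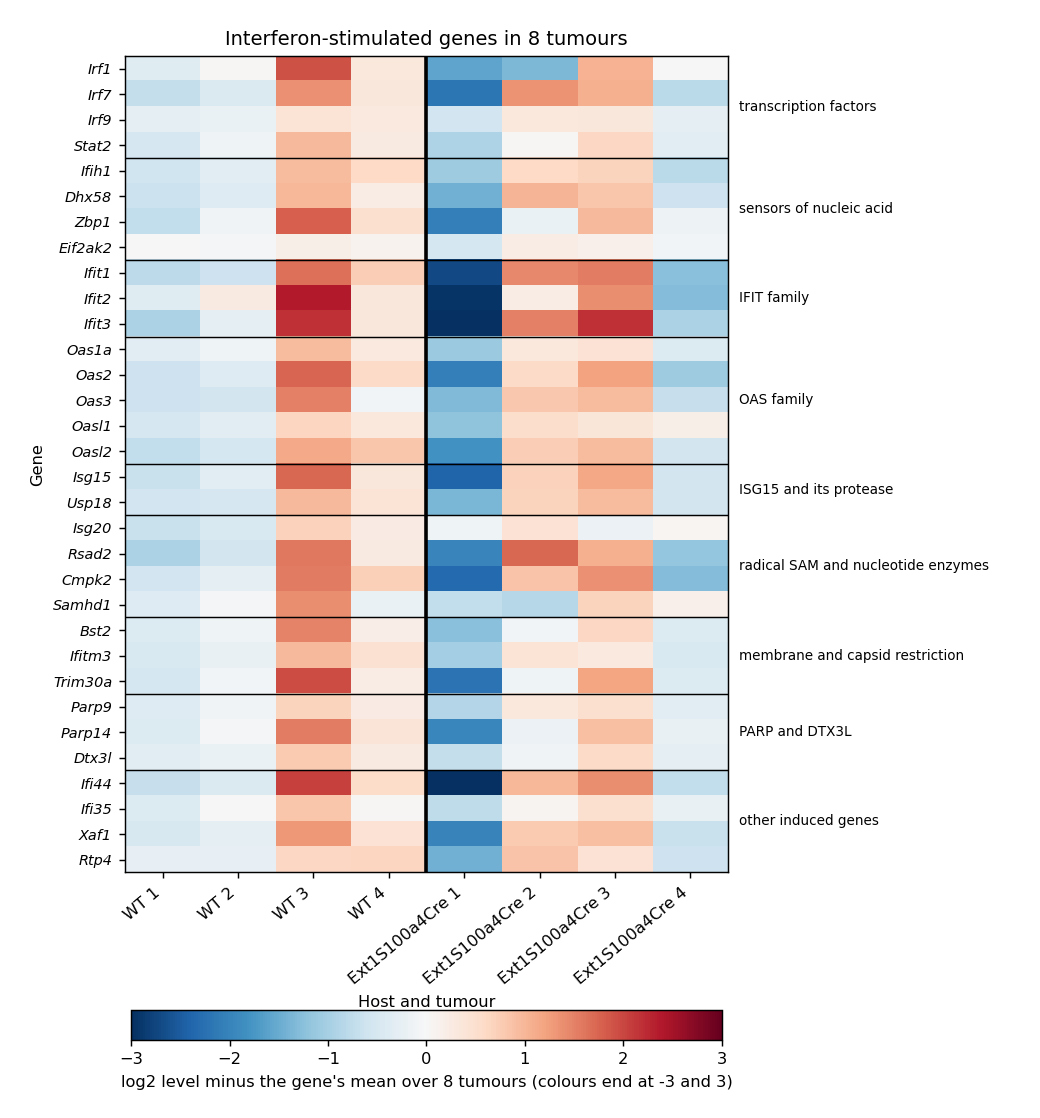
Level of each of the 32 members (rows, grouped by role) in each of the 8 tumours (columns) on the log2 scale, relative to the gene's mean over the 8 tumours. Red columns for WT host tumour 3 and Ext1S100a4Cre host tumour 3 and a blue column for Ext1S100a4Cre host tumour 1 run through nearly all roles, while Irf1 and Samhd1 are blue in Ext1S100a4Cre host tumour 2.

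By role, every measured member had a lower mean in 8 of the 9 groups, with medians from -0.67 for the IFIT family to -0.21 for the sensors, and the exception was the group that holds Isg20. None of these differences passed the test. Among the transcription factors, Irf7, which amplifies interferon production, spanned 11.6-fold over the 8 tumours. It measured 3.37, 3.65, 5.46 and 4.43 in WT host tumours 1 to 4 and 1.92, 5.43, 5.16 and 3.29 in Ext1S100a4Cre host tumours 1 to 4. Ext1S100a4Cre host tumours 2 and 3 were thus near the highest WT host tumour and tumours 1 and 4 lay below the lowest. The difference was -0.28 (SE 0.82, limma's adjusted p = 0.935). Irf9, the DNA-binding part of ISGF3, had a similar order in a narrower range, with 2.05, 2.12, 2.75 and 2.63 in the WT host and 1.76, 2.66, 2.66 and 2.04 in the Ext1S100a4Cre host. Its difference was -0.11 (SE 0.27). Stat2, its partner, measured 1.64, 2.01, 3.13 and 2.43 in the WT host and 1.24, 2.19, 2.76 and 1.82 in the Ext1S100a4Cre host, a difference of -0.30 (SE 0.40). For both genes the groups overlapped, with tumour 1 of the Ext1S100a4Cre host the lowest of all.

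Irf1, a factor induced by interferon gamma more than by type I interferon, had another order. It measured 3.00, 3.41, 5.27 and 3.68 in WT host tumours 1 to 4 and 1.77, 2.01, 4.40 and 3.36 in Ext1S100a4Cre host tumours 1 to 4. Here tumours 1 and 2 of the Ext1S100a4Cre host lay below the WT host range, and tumours 3 and 4 lay within it. The difference of -0.95 (SE 0.69) had the smallest unadjusted p of the members, 0.203, with limma's adjusted p at 0.753 and an exact two-sided permutation p of 0.257, where 0.0286 is the smallest that the 70 assignments of 4 tumours against 4 allow. A further Irf1 probe gave -1.15.

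The sensors of foreign nucleic acid had lower means in the Ext1S100a4Cre host for 4 of 4, none past the test, with a median difference of -0.21. Zbp1, which binds left-handed double-stranded nucleic acid and can trigger necroptosis, measured 0.69, 1.32, 3.23 and 1.91 in the WT host and -0.61, 1.22, 2.41 and 1.28 in the Ext1S100a4Cre host. Its difference was -0.71 (SE 0.72, limma's adjusted p = 0.797), and 3 of the 4 Ext1S100a4Cre host tumours lay within the WT host range. The RNA helicases Ifih1 (MDA5) and Dhx58 (LGP2) differed by -0.31 (SE 0.52) and -0.098 (SE 0.61). Eif2ak2, the kinase PKR that halts translation, had the narrowest span of all members, 1.67-fold over the 8 tumours, and differed by -0.12 (SE 0.18).

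The IFIT proteins, which bind viral RNA and the translation machinery, included the members with the widest spans, Ifit3 and Ifit2, and 3 of 3 had a lower mean. Ifit2 had the largest difference of all members, -1.32 (SE 0.97, limma's adjusted p = 0.754), or 2.50-fold lower, with a 95% interval from -3.54 to 0.90. With normexp background correction Ifit2 differed by -0.66 and was no longer the largest, as Irf1 then differed by -0.97. Ifit2 measured -3.32, -2.68, -0.56 and -2.60 in the WT host and -5.90, -2.73, -1.55 and -4.26 in the Ext1S100a4Cre host, where tumours 1 and 4 lay below and tumours 2 and 3 within the WT host range. Ifit3 spanned 78.5-fold, from -3.99 in Ext1S100a4Cre host tumour 1 to 2.31 in WT host tumour 3, and differed by -0.67 (SE 1.36). Ifit1 differed by -0.49 (SE 1.04). Ifit3b, a close copy of Ifit3 whose transcripts a probe may not tell apart, ranged from -5.59 in Ext1S100a4Cre host tumour 1 to 0.67 in WT host tumour 3.

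The oligoadenylate synthetases make the messenger that activates RNase L, and the Oasl proteins are relatives that act through other routes. Of these, 5 of 5 had a lower mean, with a median difference of -0.35 and 0 past the test. Oas1a measured 3.25, 3.43, 4.52 and 3.85 in the WT host and 2.45, 3.89, 3.99 and 3.15 in the Ext1S100a4Cre host, with tumours 1 and, narrowly, 4 of the latter under the WT host range. Its difference was -0.39 (SE 0.41, limma's adjusted p = 0.801). Oas2 and Oasl2 differed by -0.66 (SE 0.80) and -0.35 (SE 0.69). Oas3 and Oasl1 were closest to 0, at -0.12 (SE 0.65) and -0.066 (SE 0.43), and Oas3 turned to 0.078 with normexp background correction.

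Isg15 encodes a ubiquitin-like protein that is attached to other proteins, and Usp18 the protease that removes it and also damps the receptor. Isg15 measured 3.82, 4.17, 6.21 and 4.82 in WT host tumours 1 to 4 and 2.07, 5.17, 5.63 and 3.92 in Ext1S100a4Cre host tumours 1 to 4. Ext1S100a4Cre host tumour 1 lay 17.6-fold under WT host tumour 3, and the other 3 tumours of its host lay within the WT host range. The difference was -0.56 (SE 0.83, limma's adjusted p = 0.863), with an interval from -2.46 to 1.35. Usp18 differed by -0.15 (SE 0.57).

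Among enzymes that act on nucleotides and RNA, of which 3 of 4 had a lower mean, Rsad2 (viperin), which makes a chain-terminating nucleotide, and its genomic neighbour Cmpk2, a nucleotide kinase on the same chromosome 12, had spans of 13.2-fold and 14.8-fold. Rsad2 ranged from -2.56 in tumour 1 of the Ext1S100a4Cre host to 1.17 in its tumour 2, and the hosts differed by -0.18 (SE 0.91). Cmpk2 differed by -0.70 (SE 0.87). Samhd1, which breaks down deoxynucleotides, measured 2.51, 2.84, 4.28 and 2.70 in the WT host and 2.15, 2.04, 3.55 and 3.04 in the Ext1S100a4Cre host. Its difference was -0.39 (SE 0.48, limma's adjusted p = 0.832). As for Irf1, tumours 1 and 2 of the Ext1S100a4Cre host lay below the WT host range. Isg20, an exonuclease, was the member with a higher mean, by 0.094 (SE 0.31), but -0.16 in the unscaled series matrix, and a further probe gave -0.23.

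The membrane proteins Bst2 (tetherin), which holds budding virus at the cell surface, and Ifitm3, which blocks virus fusion, differed by -0.57 (SE 0.50) and -0.38 (SE 0.42). Bst2 measured 3.28, 3.57, 5.18 and 3.89 in the WT host and 2.44, 3.60, 4.31 and 3.29 in the Ext1S100a4Cre host, with tumour 1 of the latter below the WT host range. Trim30a, a TRIM family protein, measured -1.36, -0.93, 1.10 and -0.62 in the WT host and -3.05, -0.96, 0.34 and -1.25 in the Ext1S100a4Cre host, a difference of -0.78 (SE 0.77). For this gene too, 3 of the 4 Ext1S100a4Cre host tumours lay within the WT host range.

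Parp14, Dtx3l and Parp9 lie side by side on chromosome 16 and encode ADP-ribosyltransferases and the ubiquitin ligase that pairs with Parp9. Parp14 measured 1.56, 1.92, 3.50 and 2.36 in the WT host and 0.02, 1.79, 2.87 and 1.74 in the Ext1S100a4Cre host, and differed by -0.73 (SE 0.63, limma's adjusted p = 0.776). Dtx3l and Parp9 differed by -0.26 (SE 0.33) and -0.21 (SE 0.35). The 3 neighbours had their lowest value in Ext1S100a4Cre host tumour 1 and their highest in WT host tumour 3.

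Of the remaining induced genes, Ifi44 spanned 36.4-fold. It measured -1.49, -1.25, 1.25 and -0.25 in the WT host and -3.93, 0.20, 0.58 and -1.56 in the Ext1S100a4Cre host, with tumours 1 and 4 of the latter below the WT host range and a difference of -0.74 (SE 1.04). Rtp4, a chaperone of receptors at the cell surface, measured 3.70, 3.70, 4.55 and 4.58 in the WT host and 2.50, 4.79, 4.38 and 3.32 in the Ext1S100a4Cre host, a difference of -0.39 (SE 0.50). The latter tumours lay on both sides of the WT host range. Xaf1, a factor that promotes apoptosis, and Ifi35 differed by -0.49 (SE 0.69) and -0.21 (SE 0.33).

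Over the 32 members limma's adjusted p ran from 0.753 to 0.973. Their 95% intervals all included 0 and reached from -3.80 to 2.46 for Ifit3, so that for many members a several-fold difference in either direction was not separable from none with 4 tumours a host. For 13 members further probes passed the same filter, 14 in all, and 12 of these had the same direction as the probe used, with those of Isg20 and Oasl1 as the exceptions.

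**Figure D3:**
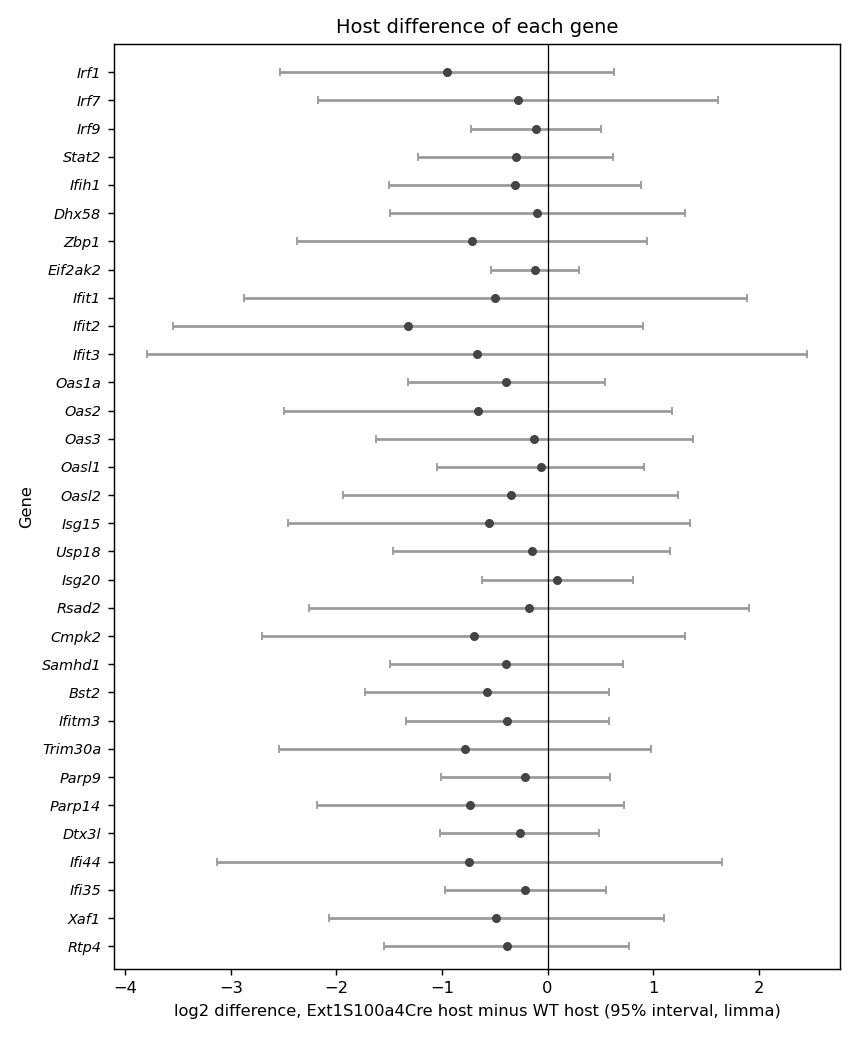
Difference between host means for each of the 32 members, in log2 units (points), with limma's 95% intervals (bars) and the line of no difference. Of the points, 31 lie below 0 and all 32 intervals cross it, with the widest for Ifit3 and the narrowest for Eif2ak2.

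Members parted ways in tumour 2 of the Ext1S100a4Cre host. Relative to tumour 3 of that host, 8 members were higher in tumour 2, among them Rsad2 (by 0.68) and Irf7 (by 0.27), against 49.9% of all genes and transcripts. At the other end, 6 members were at least 1 log2 unit lower there, namely Irf1 (-2.39), Samhd1 (-1.52), Trim30a (-1.30), Zbp1 (-1.19), Ifit2 (-1.18) and Parp14 (-1.09), where 5.03% of all genes and transcripts were that much lower. Ifng, the gene of interferon gamma, differed between these tumours by -3.48. It measured -2.88, -1.94, -0.54 and -2.60 in the WT host and -5.17, -4.84, -1.36 and -2.17 in the Ext1S100a4Cre host, low in tumours 1 and 2 of the latter as was Irf1. Gbp2, a GTPase induced by interferon gamma, was low in those tumours too, with 1.84, 2.57, 5.06 and 3.54 in the WT host and 0.55, 0.96, 3.96 and 3.04 in the Ext1S100a4Cre host. The 7 GTPases of this kind differed by -2.08 on average between tumours 2 and 3, against -0.39 for the members. Markers shared by leukocytes were also lower in tumour 2 than in tumour 3, 5 of 5 (from -1.82 for Ptprc to -0.66 for Cd53). So were 7 of 9 T and NK cell markers (among them Cd3g -3.19, Cd3d -2.91 and Cd8a -2.53), while Klrb1c and Ncr1 were higher by 0.92 and 0.38. Of macrophage and monocyte markers 7 of 8 were lower there, of B cell markers 3 of 4 and of plasmacytoid dendritic cell markers 3 of 6. Of these, the B cell marker Ms4a1 was not well above background in either tumour, and the dendritic cell marker Ccr9 was not in tumour 2. Only 1 of 5 neutrophil markers was lower, Retnlg (-2.95), while S100a9 and S100a8 were higher by 3.39 and 2.46. Of fibroblast markers 1 of 7 was lower, and of endothelial markers 3 of 5. Epithelial markers were lower for 0 of 6, erythrocyte markers for 0 of 5 and skeletal muscle markers for 6 of 6. Their mean differences were 0.57, 3.30 and -0.88. The part of these cells in the contrast was not tested. These are values of single tumours with no replicate, and the genes compared here were picked after their values were seen.

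**Figure D4:**
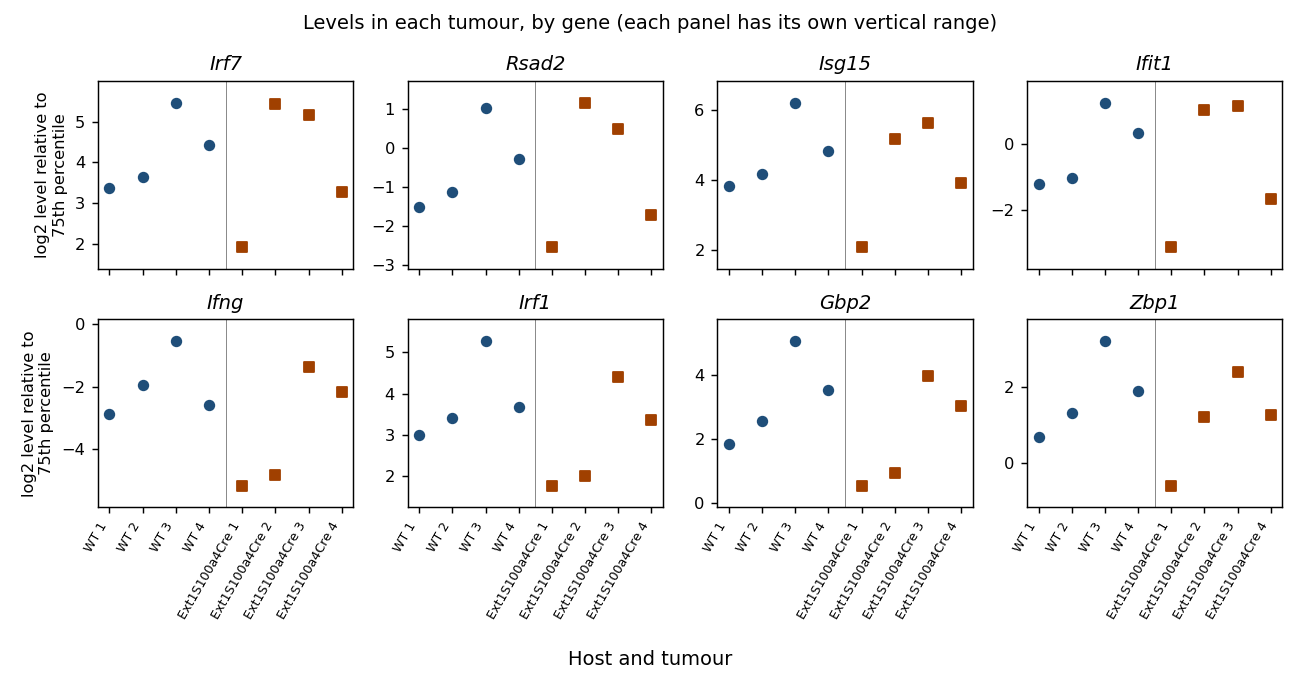
Log2 level of 8 genes (vertical axes, relative to each array's 75th percentile) in WT host (circles) and Ext1S100a4Cre host (squares) tumours, each panel on its own vertical scale. In the upper row (Irf7, Rsad2, Isg15 and Ifit1) Ext1S100a4Cre host tumours 2 and 3 are both high, and in the lower row (Ifng, Irf1, Gbp2 and Zbp1) tumour 3 is high and tumour 2 is not.

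The list mean of the type I ligand genes stayed between -0.19 and 0.30 in the 8 tumours, with no test against the members' spread. These probes were dim, with host means from -7.17 (Ifnb1, Ext1S100a4Cre host) to -4.20 (Ifnk, WT host). Ifna11 and Ifna13 were well above background on 6 and 4 arrays, and untested ligand genes with a probe on at most 1. The narrow range therefore does not show that ligand expression was constant. Of 18 type I ligand genes 10 were tested, 5 with a lower and 5 with a higher mean, a median difference of -0.013 and 0 at an unadjusted p under 0.05. The smallest p values were those of Ifna13 (-0.33, SE 0.22), Ifnab (0.15, SE 0.12) and Ifna9 (0.17, SE 0.16). The ligand family has close copies that probes may not tell apart. Ifnb1, the gene of interferon beta, was well above background in 3 WT host tumours and in 1 Ext1S100a4Cre host tumour, tumour 2, where it was highest (-4.93, against -6.03 in WT host tumour 3). Ext1S100a4Cre host tumour 3 lay at -7.81 and was not well above background. The difference of Ifnb1 was -0.37 (SE 0.84), or 0.19 with normexp.

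Of 5 receptor, kinase and STAT genes, 4 had a lower mean and 0 an unadjusted p under 0.05. Ifnar1 stayed between 1.85 and 2.18 in all 8 tumours, with a difference of 0.10 (SE 0.11) that became -0.15 in the unscaled series matrix. Ifnar2 differed by -0.37 (SE 0.27), Jak1 by -0.25 (SE 0.17) and Stat3 by -0.33 (SE 0.23).

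Of 14 sensors, adaptors and kinases that lead to interferon production, 8 had a lower mean. Tbk1, the kinase that activates Irf3, measured -0.65, -0.56, -0.82 and -0.57 in the WT host and -0.84, -0.91, -1.00 and -1.01 in the Ext1S100a4Cre host. These narrowly do not overlap, as for 4.52% of all genes and transcripts. Its difference of -0.29 (SE 0.12, limma's adjusted p = 0.747) was the only one of the 14 with an unadjusted p under 0.05. Of all genes and transcripts 6.55% had such a p, or 2.16% counting lower values alone. Traf3, an adaptor, differed by 0.26 (SE 0.15). Cgas, which senses DNA in the cytosol, differed by -1.06 (SE 0.63). Of 8 brakes on the pathway, 6 had a lower mean, among them Socs3 (-0.91, SE 0.47) and Ptpn6 (-0.75, SE 0.45), while Ptpn2 differed by 0.26 (SE 0.15), with 0 at an unadjusted p under 0.05. Of 6 genes for type II and III ligands and receptors, 5 had a lower mean and 0 such a p, with Ifng at -1.39 (SE 0.94), Il10rb at -0.58 (SE 0.35) and Ifnlr1 at 0.38 (SE 0.27). Of 33 further induced genes, 31 had a lower mean. Of the 33, 2 had an unadjusted p under 0.05, where 6.55% of all did, or 2.16% counting lower values alone. These were Trim25 (-0.67, SE 0.26) and Slfn8 (-1.00, SE 0.40), followed by Ifitm1 (-0.65, SE 0.31). Over all these lists limma called 0 genes at an adjusted p of 0.05.

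Markers of other cells also differed between tumours. Of 8 marker lists for leukocyte types, fibroblasts and endothelial cells, 7 had their highest mean in WT host tumour 3 and their lowest in Ext1S100a4Cre host tumour 1, as the members did, and the neutrophil list did not. The 5 leukocyte markers had means from -0.16 to 2.03 in the WT host and from -2.10 to 0.66 in the Ext1S100a4Cre host. The 8 macrophage and monocyte markers ran from -0.0043 to 2.29 and from -2.62 to 0.43, the 9 T and NK cell markers from -0.43 to 1.98 and from -2.31 to 1.03, and the 7 fibroblast markers from -0.075 to 1.81 and from -2.96 to 0.78. All leukocyte, macrophage and fibroblast markers and 6 of the 9 T and NK cell markers were well above background in all 8 tumours. Means were lower in the Ext1S100a4Cre host for 5 of 5 leukocyte, 8 of 8 macrophage and 9 of 9 T and NK markers. So were those of 7 of 7 fibroblast, 5 of 5 endothelial and 2 of 5 neutrophil markers, against 41.9% of all genes and transcripts. The lists differed by -1.24, -1.47, -1.05, -1.33, -0.64 and 0.25 in that order, with 0 markers called at limma's adjusted p of 0.05. Of plasmacytoid dendritic cells, which secrete type I interferon and carry Bst2, 6 of 7 markers were measured, from -0.30 to 1.00 and from -0.91 to 0.78. Their host means split evenly, with 3 lower (Ccr9 -1.35, Spib -1.10 and Runx2 -0.53) and 3 higher (Cox6a2 1.49, Tcf4 0.14 and Siglech 0.13). Siglech stayed between 6.98 and 7.37 and Tcf4 between 4.24 and 5.16, while the WT host means of Ccr9, Spib and Runx2 were -4.97, -3.90 and -4.46. Ccr9 was well above background in 4 WT host tumours and 1 Ext1S100a4Cre host tumour, and Runx2 in 4 and 3. Whether these probes follow such cells was not tested. Cox6a2 was higher in Ext1S100a4Cre host tumours 2 and 3 (0.010 and 0.47) than in the WT host (-4.65 to -1.40), and those tumours also had the highest skeletal muscle markers. The 4 B cell markers ran from 0.10 to 1.62 and from -1.06 to -0.21, with 2 lower in the Ext1S100a4Cre host (Ms4a1 -3.57 and Cd79b -1.50) and 2 higher (Pax5 0.086 and Cd79a 0.078). Ms4a1 was well above background in 4 WT host and 0 Ext1S100a4Cre host tumours, so it passed the filter through the WT host alone. The size of its difference, and the list means in the Ext1S100a4Cre host, therefore rest partly on values at background. The 5 neutrophil markers ran from -0.92 to 1.77 and from -0.20 to 0.59 and the 5 endothelial markers from -0.068 to 0.89 and from -1.45 to 0.24.

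The order was not the same throughout. Ext1S100a4Cre host tumour 2 stood at 0.46 for the members. Its marker lists stood at -0.85 for leukocytes, -0.16 for macrophages, -0.44 for T and NK cells and -0.91 for B cells. They stood at 0.78 for fibroblasts, 0.59 for neutrophils, 0.24 for endothelial cells and 0.071 for plasmacytoid dendritic cells. The 6 epithelial markers that MC38 cells could carry stayed between -0.33 and 0.47 in the 8 tumours. Skeletal muscle markers, 6 of 7 measured, ran from -2.20 to -1.16 in the WT host and reached 3.29 and 4.17 in Ext1S100a4Cre host tumours 2 and 3. The 5 erythrocyte markers ran from -1.85 to -0.18 in the WT host and from -0.63 to 2.67 in the Ext1S100a4Cre host. The part of these cells, and of the Y chromosome difference, in the members' levels was not tested.

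The arrays lay in 2 rows of 1 slide with 2 tumours of either host in each. Within slide row 1 the list differed by -0.19 (20 of 32 members lower) and within slide row 2 by -0.66 (32 of 32 lower), while both hosts had higher list means in row 2, 0.81 and 0.16, than in row 1, -0.39 and -0.58.

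**Figure D5:**
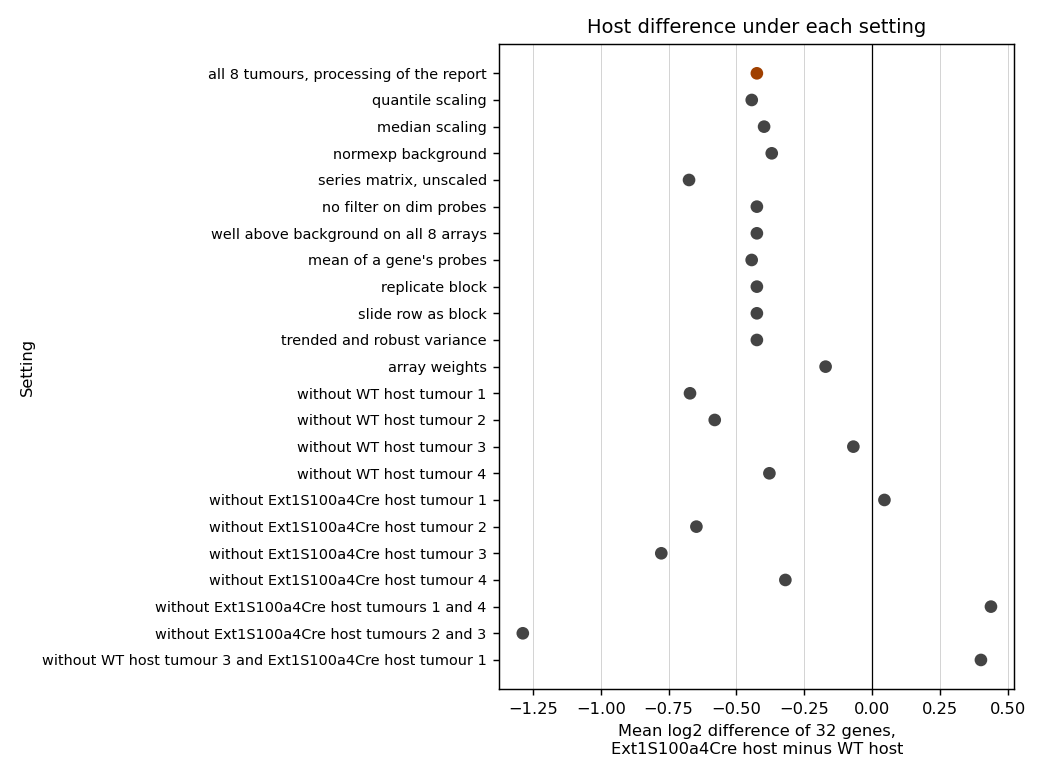
Mean log2 difference of the 32 members, Ext1S100a4Cre host minus WT host, with all 8 tumours and the processing used here (brown) and under each of the 22 alternatives (grey). Under the alternatives that keep all 8 tumours the value stays below 0, from -0.67 to -0.17, and it passes 0 in 3 cases. These leave out tumour 1 of the Ext1S100a4Cre host, either alone, with tumour 4 of that host, or with WT host tumour 3.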

How the data were processed

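Per the file headers, the deposited files hold spot intensities on a linear scale from Agilent Feature Extraction 10.7.3.1 (9.1 in the submitters' processing notes), with background subtracted by the authors' scanner software. The deposited series matrix holds the same intensities unscaled. Other deposited columns hold flags of 0 or 1 for spots above background, saturated or outlying. Control spots and flagged spots (53 to 132 per array) were left out, and no spot was saturated. Log2 intensity minus the array's 75th percentile was used for 39716 of 56605 probes, those well above background on at least 4 of 8 arrays. Genes were named through unversioned accessions in a RefSeq table (GRCm38.p6; the headers name mm9, so no coordinates are given) and represented by the probe with the highest mean.

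Hosts were compared with limma 3.58.1 under R 4.3.3, by its lmFit and eBayes functions and two-sided, with Benjamini-Hochberg adjustment over all 31281 features, and single members also by exact permutation. The procedure was tested on simulated data with planted changes larger than any member's difference and spreads capped at the median over all features. That test does not measure the power for the members. The number of arrays and their brightness over background limit the precision. The members and lists were chosen with earlier results of these data known.

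Values in each tumour are given for Irf1, Irf7, Irf9, Stat2, the member of each role with the smallest p and the 6 largest differences, and up to 3 genes are named per pathway list. Ifit3, Ifit3b, Isg20, Rsad2, Gbp2 and the genes that part tumours 2 and 3 were picked after their values were seen. Alternatives were quantile and median scaling, normexp (offset 50), the series matrix, other filters, the mean of a gene's probes, blocks, array weights, a trended robust variance, a threshold of 0.1 and leaving out tumours. Promoter motifs were not analysed here, and 2 genes of the pathway and marker lists are not reported here.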

Additional observations from a re-analysis of the deposited data

Results flagged for a closer look

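Ifnar2, a chain of the type I interferon receptor, measured 1.52 in WT host tumour 3, away from the other 3 WT host tumours, which lay between 0.45 and 0.61. Socs3, an inhibitor of cytokine signalling, measured 4.03 in the same tumour, against 2.21 to 2.41 in the other 3. Both gaps exceeded Dixon's 95% critical value for 4 samples. They were 2 of 94 groups of 4 tumours checked, where chance alone marks about 1 in 20, and none of the 32 members nor their list mean was among them.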

How the results depend on the processing

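In each of the 23 alternatives limma called 0 of the 32 members, and the list mean stayed below 0 under every alternative that kept all 8 tumours, from -0.67 to -0.17. Leaving out 1 tumour at a time gave list means from -0.78 to 0.045, 13 to 32 members with a lower mean, and 0 to 2 genes or transcripts past the adjusted threshold, where all 8 tumours gave 0. That number was 1 with normexp and 1 with array weights. Without Ext1S100a4Cre host tumours 1 and 4 the list mean was 0.44, 4 members were lower and 11 genes or transcripts passed. Without WT host tumour 3 and Ext1S100a4Cre host tumour 1 the values were 0.40, 1 and 3. The cause was not tested. Signals of the 32 members were well above background on all 8 arrays, while Ifnb1 was near background. The spread between 4 tumours a host limited the comparison, and the difference of Ifit2 also changed with background correction, from -1.32 to -0.66 with normexp.

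Same-numbered tumours of the 2 hosts correlated at 0.49, -0.16, 0.59 and -0.25 in their deviations from the group means. With 4 tumours a host and deviations that sum to 0 within each host, these values cannot decide whether the numbers pair the tumours. The main comparison took the tumours as unpaired. With the replicate number as a block, 3241 of 31281 features and 6 of 32 members had an unadjusted p under 0.05 by limma. Without a block these counts were 2050 and 0, and with the slide row as a block 2265 and 1. In each of these fits 0 features passed the adjusted threshold.

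Single genes turned direction as follows, and the causes were not tested. With array weights the differences were Oas3 0.14, Oasl1 0.20, Usp18 0.080, Dhx58 0.043 and Samhd1 0.0085. With the mean of a gene's probes they were Isg20 -0.066 and Ifnar1 -0.12. With normexp they were Oas3 0.078 and Ifnb1 0.19, and in the series matrix Isg20 -0.16 and Ifnar1 -0.15.

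Without Ext1S100a4Cre host tumours 1 and 4 they were Ifit1 1.24, Ifit2 0.15, Ifit3 1.52, Ifit3b 1.72, Isg15 0.65, Usp18 0.73, Oas1a 0.18, Oas2 0.57, Oas3 0.82, Oasl1 0.42, Oasl2 0.66, Rsad2 1.31, Cmpk2 0.77, Irf7 1.07, Irf9 0.27, Stat2 0.18, Ifi44 0.82, Ifih1 0.48, Dhx58 0.88, Zbp1 0.028, Eif2ak2 0.13, Ifi35 0.17, Parp9 0.29, Dtx3l 0.097, Xaf1 0.60, Rtp4 0.45, Ifitm3 0.17, Trim30a 0.14 and Ifnb1 0.43.

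Without WT host tumour 3 and Ext1S100a4Cre host tumour 1 they were Ifit1 0.80, Ifit2 0.019, Ifit3 1.21, Ifit3b 1.50, Isg15 0.64, Usp18 0.58, Oas1a 0.17, Oas2 0.38, Oas3 0.78, Oasl1 0.53, Oasl2 0.52, Rsad2 0.96, Cmpk2 0.36, Samhd1 0.19, Irf7 0.81, Irf9 0.18, Stat2 0.23, Ifi44 0.74, Ifih1 0.27, Dhx58 0.68, Zbp1 0.33, Eif2ak2 0.077, Bst2 0.15, Ifitm3 0.16, Trim30a 0.34, Parp14 0.19, Parp9 0.23, Dtx3l 0.14, Ifi35 0.24, Xaf1 0.45, Rtp4 0.17, Ifnar2 0.023 and Gbp2 0.00083.

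Over the fits that left out 1 tumour each, differences ran from -1.09 to 0.33 for Ifit1, -1.51 to 0.59 for Ifit3, -1.25 to 0.84 for Ifit3b, -1.03 to 0.15 for Isg15, -0.49 to 0.28 for Usp18, -0.11 to 0.34 for Isg20, -0.46 to 0.36 for Oas3, -0.25 to 0.33 for Oasl1, -0.72 to 0.20 for Oasl2, -0.78 to 0.46 for Rsad2, -0.77 to 0.40 for Irf7, -0.24 to 0.063 for Irf9, -1.33 to 0.18 for Ifi44, -0.58 to 0.00032 for Ifih1, -0.46 to 0.37 for Dhx58, -0.41 to 0.027 for Ifi35, -0.41 to 0.047 for Parp9, -0.87 to 0.099 for Xaf1, -0.73 to 0.027 for Rtp4, -0.21 to 0.037 for Eif2ak2, -0.68 to 0.011 for Samhd1 and -1.12 to 0.14 for Ifnb1.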
